A study of Mus musculus with 4 samples.

Results

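The outer stripe of the outer medulla was compared with the cortex inside normal mouse kidney, spot by spot on tissue sections. Spots were selected on the measured counts of 8 genes and not by eye. In each of the 2 normal sections, counts were pooled over every tissue spot and its up to 6 neighbours on the array. The 15% of spots with the largest share of Slc7a13, Cyp7b1, Serpina1f and Slc22a13 were taken as outer stripe, and the 30% with the largest share of Slc5a2, Slc5a12, Slc22a6 and Slc22a8 as cortex. This gave 794 outer stripe and 1590 cortex spots, 2384 of the 5298 tissue spots of the normal sections and of the 10312 tissue spots in the 4 sections analysed here. No normal spot was in both sets.

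The kidneys were left kidneys of male C57BL/6J wild-type mice, 7 to 8 weeks old, frozen, cut at 10 µm and placed on a Visium slide, on which spots carrying barcoded primers capture polyadenylated RNA from the tissue above them. Each molecule is counted once through its unique molecular identifier (UMI). The normal sections came from kidneys without ischemia, and the 2 ischemic sections, used only for a comparison at the end, came from mice taken 24 h after 30 min of bilateral renal ischemia. No source used here ties a section to a mouse, and the study describes technical replicates, so the 2 normal sections may be of 1 mouse and the p-values measure only the spread between sections. A spot covers several cells, so more cells of a type and more RNA per cell cannot be told apart.

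The proximal tubule begins as a convoluted tubule in the cortex (segments S1 and S2), where most filtered glucose, amino acids, phosphate and bicarbonate is taken back, and continues as a straight segment (S3) that runs through the outer stripe. The straight segment takes up what is left, secretes organic anions and cations and is known for its sensitivity to ischemia. In the outer stripe it lies beside the thick ascending limb of Henle's loop and collecting ducts, whereas the cortex also holds glomeruli, distal convoluted tubules and connecting tubules.

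Normal section 1 gave 392 outer stripe spots and normal section 2 gave 402, beside 785 and 805 cortex spots. Summed over these spots, the outer stripe held 7785912 and 4598123 UMIs and the cortex 14130401 and 8641409. A median outer stripe spot carried 18352.5 UMIs in section 1 and 10597.5 in section 2, and a median cortex spot 17283 and 8607. Outer stripe spots were deep in the tissue, at a median of 10 and 8 spots from the nearest tissue edge, and cortex spots were at a median of 3 and 3. Of the neighbours of an outer stripe spot 74.7% and 79.3% were outer stripe, and of those of a cortex spot 85.2% and 81.9% were cortex, but pooling gives neighbours shared counts. With zones from each spot's own counts these shares were 49.2% and 54.8% for the outer stripe and 63.7% and 60.7% for the cortex. Mitochondrially encoded genes made up a median 4.42% and 3.62% of UMIs in outer stripe spots and 4.85% and 3.78% in cortex spots. The outer stripe spot just inside the limit had a pooled share of 0.26998% in section 1 and 0.24700% in section 2, and the one just outside 0.26994% and 0.24635%. For the cortex these were 0.083731% and 0.085105% inside, and 0.083652% and 0.085028% outside.

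**Figure D1:**
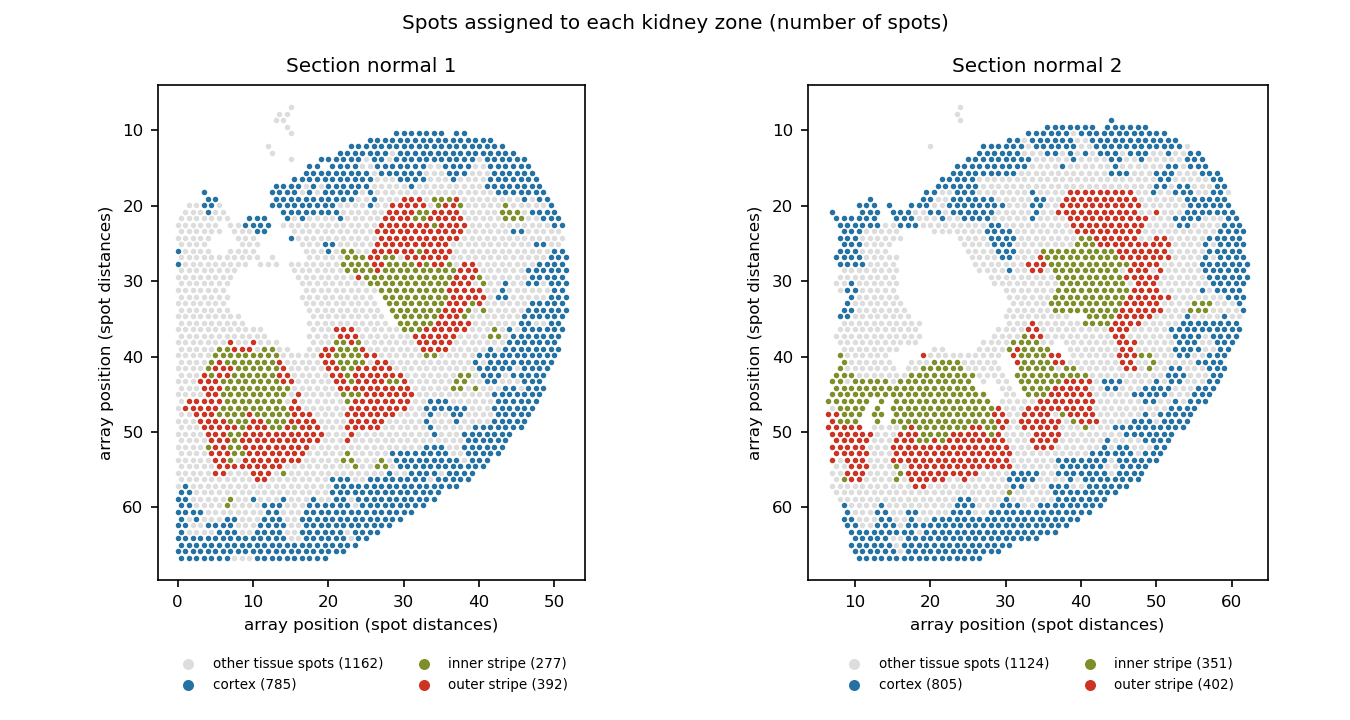
Position of the tissue spots of the 2 normal sections on the Visium array, both axes in distances between neighbouring spots, coloured by zone. The 392 and 402 outer stripe spots form patches around or beside inner stripe spots, and the 785 and 805 cortex spots form the outer rim.

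The 8 genes that drew the zones are given as a description. Levels are CPM, the usual per-library scaling of counts, over the summed spots, scaled by edgeR's TMM factors. Slc7a13, an aspartate and glutamate transporter, was at 959.6 and 879.7 CPM in the outer stripe and 309.6 and 277 CPM in the cortex. Cyp7b1, an oxysterol hydroxylase, was at 694 and 561 CPM against 22.2 and 22.5 CPM, and Slc22a13, an organic anion transporter, was at 161 and 140.4 CPM against 13.4 and 9.38 CPM. Serpina1f, a serpin, was at 1540.1 and 1266 CPM against 42.2 and 36.8 CPM. Slc5a2, the glucose transporter SGLT2, was at 14.9 and 19.7 CPM in the outer stripe and 378 and 376 CPM in the cortex. The other cortex genes were Slc5a12, a lactate transporter, and the organic anion transporters Slc22a6 and Slc22a8. They were at 0.853 to 23.6 CPM in the outer stripe and 39.9 to 504.4 CPM in the cortex.

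Across the other genes, 12633 passed the filter on low counts and 4903 (38.8%) differed between outer stripe and cortex at an adjusted p under 0.05 (edgeR quasi-likelihood test with section as a block, Benjamini-Hochberg adjustment). Of these, 2395 (19.0%) were higher and 2508 (19.9%) lower in the outer stripe. At least a 2-fold difference was seen for 699 higher (5.53%) and 916 lower genes (7.25%). The direction was the same in both sections for 4888 of the 4903 genes, and the median log2 difference over all genes was -0.02. Without the section block, 1525 genes were higher and 1707 lower. Scaling by spots in place of library size gave 2826 higher and 2228 lower genes, so that 55.9% of the calls were higher against 48.8% with TMM.

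The 15 largest differences upward among genes at 20 CPM or more in the outer stripe of both sections ran from 5.81 to 3.84 on the log2 scale. Akr1c18, which codes for a steroid dehydrogenase that inactivates progesterone, was at 184 CPM in the outer stripe of section 1 and 141 CPM in that of section 2, and at 3.29 and 2.48 CPM in the cortex. Its log2 difference was 5.81 ± 0.10 (SE, n = 2 sections; adjusted p = 7.89e-55, edgeR). The groups lay far apart in both sections, as they did for the other 14 genes. This follows from the choice of genes by large differences of the same sign in both sections.

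Bcat1, the cytosolic aminotransferase of branched-chain amino acids, was at 179 and 152 CPM in the outer stripe and 3.58 and 5.07 CPM in the cortex. Mettl7a2, a methyltransferase-like gene, was at 643 and 496 CPM against 18.5 and 13.9 CPM. Aqp4, a water channel, was at 46.8 and 36.7 CPM against 1.24 and 2.05 CPM. Slc39a8, an importer of zinc and manganese, was at 171 and 146 CPM against 12.0 and 10.1 CPM. C8a, which codes for a chain of complement component 8, was at 44.5 and 39.6 CPM against 2.63 and 2.91 CPM, and Gdpd3, a lysophospholipase D, at 41.8 and 33.6 CPM against 2.34 and 2.59 CPM. The long noncoding RNAs 2310008N11Rik and 4930434B07Rik were also among the 15. Their log2 differences were 5.12 ± 0.23 and 4.73 ± 0.16.

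The remaining 6 leading genes lay in 2 gene clusters. Serpina1b, Serpina1d, Serpina1a and Serpina1c, copies of the gene for alpha-1-antitrypsin, lie within GRCm38 chr12:103728156-103904887, beside the zone gene Serpina1f. Serpina1d was at 1119 and 782 CPM in the outer stripe and 44.2 and 38.8 CPM in the cortex, and the 4 log2 differences ran from 4.35 to 4.82. These copies are nearly identical and Serpina1b overlaps Serpina1d in the annotation, so how reads were split between them is uncertain. The 120 bases before the RefSeq start of each (GRCm38.p6, minus strand of chromosome 12) are shown because they share a run of 55 bases, in capitals:

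Serpina1a, chr12:103863620-103863739: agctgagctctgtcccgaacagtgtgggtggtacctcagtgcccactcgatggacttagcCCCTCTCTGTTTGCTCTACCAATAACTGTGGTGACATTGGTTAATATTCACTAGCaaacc
Serpina1b, chr12:103738190-103738309: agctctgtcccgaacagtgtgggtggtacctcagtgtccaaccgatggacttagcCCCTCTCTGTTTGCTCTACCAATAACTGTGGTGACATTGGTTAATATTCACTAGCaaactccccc
Serpina1c, chr12:103904951-103905070: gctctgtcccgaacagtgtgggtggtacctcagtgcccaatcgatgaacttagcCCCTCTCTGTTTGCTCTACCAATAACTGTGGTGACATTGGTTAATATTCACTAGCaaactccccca
Serpina1d, chr12:103773634-103773753: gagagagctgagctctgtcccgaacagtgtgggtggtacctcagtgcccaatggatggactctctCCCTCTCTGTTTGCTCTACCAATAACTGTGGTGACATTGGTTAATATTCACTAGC

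The run was in none of the other promoters of the RefSeq table that were searched for it. That search left out genes whose symbols begin like those of the copies shown. It did not cover every promoter of a gene, nor the opposite strand. Motifs were also searched on both strands of the 250 bases before the start. AAAGTCC (or GGACTTT), the core of the site of the tubule transcription factor HNF4A, was found for 986 of 27025 genes in the table (3.65%), for 352 of the 9921 tested genes it holds (3.55%), for 27 of 505 genes higher by at least 2-fold (5.35%) and for 30 of 683 lower by at least 2-fold (4.39%). The TATA box letters TATAAA (or TTTATA) were found for 13.0% of all genes in the table, 6.48% of the tested genes, 8.32% of these higher and 10.1% of these lower genes.

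The second cluster, GRCm38 chr19:7673061-8628299, holds organic anion transporter genes that differed in both directions. Slc22a19 was at 265 and 252 CPM in the outer stripe and 10.8 and 11.6 CPM in the cortex, and Slc22a26 at 60.0 and 47.9 CPM against 2.56 and 1.19 CPM. Both were among the 15 leading genes. Slc22a27, between these and Slc22a28, had 10 outer stripe UMIs in each section against 0 and 1 cortex UMIs. Slc22a30, farther along, was higher by 0.70 ± 0.06 on the log2 scale. Slc22a28 was lower, at -0.30 ± 0.07 (-0.19 and not called without section 2). Slc22a29 was lower at -3.09 ± 0.50, but at low levels, 0.569 and 0.207 CPM in the outer stripe against 3.73 and 3.67 CPM. Slc22a8 and Slc22a6, which close the cluster, were used to draw the cortex zone, so their direction was set by that choice. These transporters are related in sequence, so some reads may be lost between them.

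In the other direction, the 15 largest differences ran from -7.12 to -5.47. Outer stripe counts were at most 15 UMIs per section for 13 of these genes, the others being S100g and Calb1. Car3, a carbonic anhydrase, was at 101 and 89.0 CPM in the cortex and 0.569 and 0.830 CPM in the outer stripe, with 4 and 4 UMIs there. Pvalb, a calcium-binding protein of the early distal convoluted tubule, was at 101 and 74.3 CPM in the cortex and 0.711 and 0.622 CPM in the outer stripe. S100g, calbindin-D9k, was at 4630.4 and 4404 CPM against 81.5 and 89.6 CPM, with a log2 difference of -5.73 ± 0.07 (adjusted p = 1.35e-65, edgeR). Each of these genes separated the zones in both sections, which again follows from how they were chosen.

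Genes of calcium and vitamin D were among the 15. Calb1, calbindin-D28k of the distal and connecting tubule, was at 368 and 312 CPM in the cortex and 6.68 and 4.56 CPM in the outer stripe, and Cyp24a1, which inactivates vitamin D, was at 31.6 and 39.1 CPM against 0.427 and 0.830 CPM. Amino acid breakdown was represented by Gldc, of the glycine cleavage system, at 82.0 and 81.8 CPM against 1.56 and 1.45 CPM, and by Prodh2, the hydroxyproline dehydrogenase, at 82.3 and 84.4 CPM against 0.996 and 3.11 CPM. Of the carboxylesterases, Ces1e and Ces1g (GRCm38 chr8:93201218-93337308) were lower by 5.93 and 5.57 on the log2 scale, and their neighbours Ces1d and Ces1f by 1.83 and 0.42. Acnat2, Clec2h, Nat8f2, Sectm1b, D630023F18Rik and Gm15883 completed the 15, with 2 to 14 UMIs per section in the outer stripe. Gm15883 is annotated antisense to Cyp2f2.

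**Figure D2:**
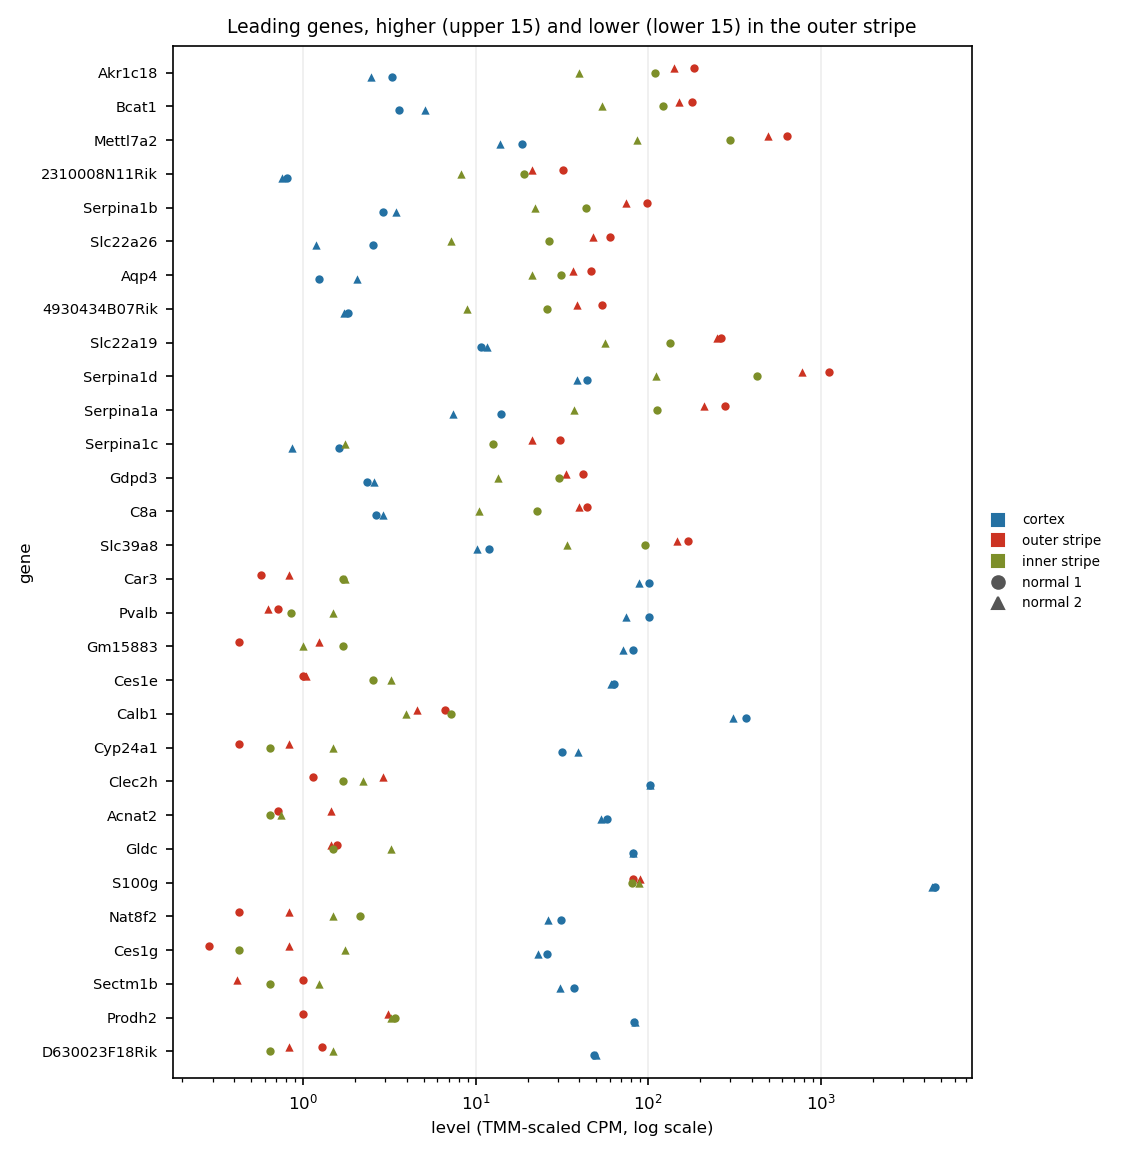
Level of the 15 leading genes in each direction, in TMM-scaled CPM on a log axis, in the cortex, outer stripe and inner stripe of normal section 1 (circles) and section 2 (triangles). Cortex and outer stripe points do not overlap for any gene, which follows from the choice of genes by large differences between these zones. For the upper 15 the inner stripe points lie between them.

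The label was checked against genes of the straight segment that the zones did not use. All 8 were higher in the outer stripe, against 19.0% of all genes, with a median log2 difference of 1.59. Napsa, an aspartic protease, was at 5746 and 5014 CPM in the outer stripe and 773 and 722 CPM in the cortex. Slc22a7, the organic anion transporter OAT2, was at 907 and 786 CPM against 86.8 and 76.1 CPM, and Slc5a8, a lactate and short-chain fatty acid transporter, was at 319 and 286 CPM against 112 and 103 CPM. Atp11a, a phospholipid flippase, was at 925 and 865 CPM against 347 and 305 CPM. The smallest differences were those of Slc1a1, a glutamate transporter (0.51 ± 0.06), and Acy3, an aminoacylase (0.57 ± 0.05).

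Of 12 genes of the convoluted segment, 10 were lower in the outer stripe, against 19.9% of all genes, 1 was higher and 1 was not called. The list's median was -3.50. Gatm, of creatine synthesis, was at 9.53 and 22.2 CPM in the outer stripe and 625 and 632 CPM in the cortex, and Slc34a1, the main renal phosphate transporter, at 172 and 205 CPM against 3909.8 and 3538 CPM. Slc2a2, which passes glucose to the blood, was at 6.97 and 6.02 CPM against 109 and 99.7 CPM, and Slc4a4, which does so for bicarbonate, at 18.8 and 27.4 CPM against 190.2 and 226 CPM. Some of the 12 showed smaller differences. The endocytic receptor Lrp2 was lower at -0.61 ± 0.06, and its partner Cubn was the 1 higher gene, at 0.32 ± 0.06. The urate transporter Slc22a12 was the 1 not called, at -0.09 ± 0.06.

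**Figure D3:**
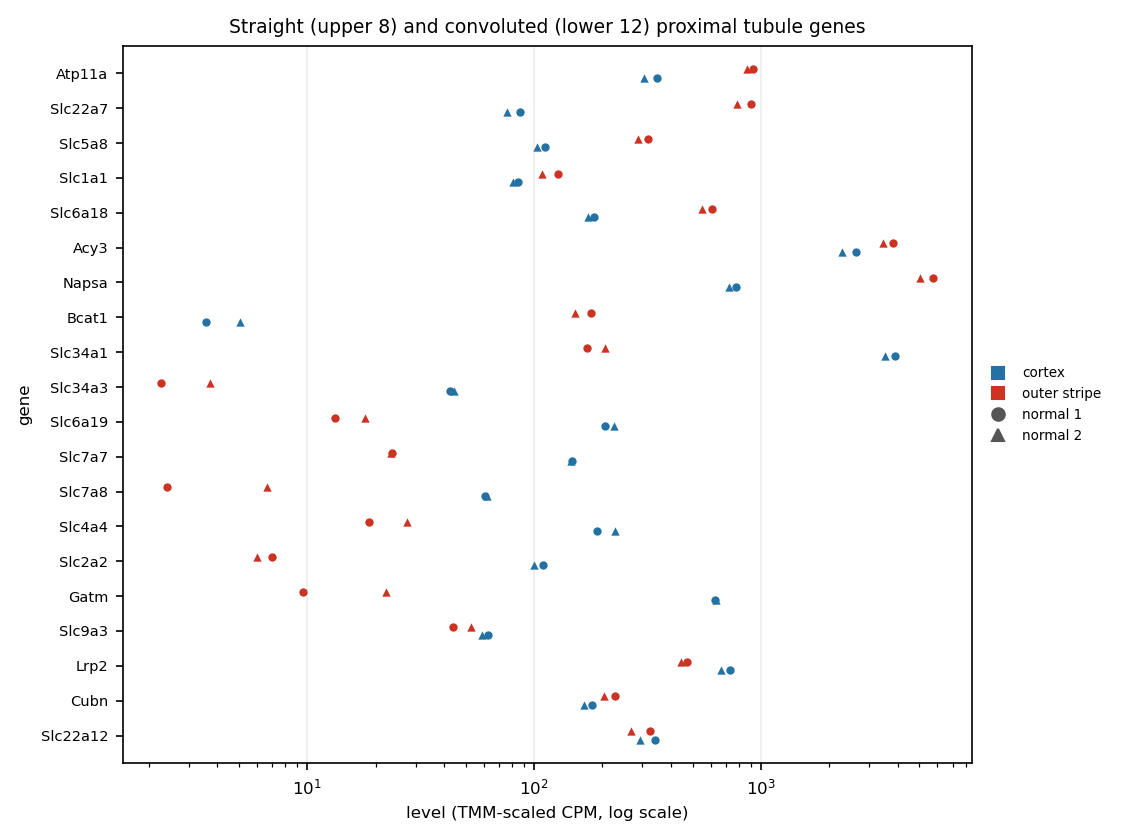
Level of 8 genes of the straight and 12 genes of the convoluted proximal tubule in TMM-scaled CPM on a log axis, in the cortex (blue) and outer stripe (red) of normal section 1 (circles) and section 2 (triangles). The 8 straight segment genes are higher in the outer stripe, and 10 of the 12 convoluted segment genes are lower, Cubn and Slc22a12 being the exceptions.

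Transport genes of one substrate went in both directions. The counts of this and the following lists stand beside 19.0% higher and 19.9% lower over all genes. Among 17 amino acid transporters, 9 were higher and 8 lower in the outer stripe, with none uncalled and a median of 0.23. Slc6a19 and Slc6a18, neutral amino acid carriers of the brush border, went in opposite directions. Slc6a19 was at 205 and 226 CPM in the cortex and differed by -3.81 on the log2 scale, and Slc6a18 was at 606 and 548 CPM in the outer stripe against 183 and 173 CPM. Slc38a3, a glutamine carrier, was at 82.3 and 72.4 CPM against 13.0 and 13.3 CPM. The basolateral partners Slc7a7, Slc7a8 and Slc3a2 were lower by 2.64, 3.88 and 2.02 on the log2 scale. For cystine, the heavy chain Slc3a1 was higher at 1.16 ± 0.06, and the light chain Slc7a9 lower at -1.83 ± 0.08. Slc7a12, an amino acid transporter of the same family as Slc7a13, was at 7.25 and 5.60 CPM against 1.02 and 0.323 CPM, a log2 difference of 3.14 ± 0.35.

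Of the 5 glucose and fructose transporters, Slc5a1 (SGLT1) was higher in the outer stripe at 1.34 ± 0.12, with 34.3 and 31.1 CPM against 13.3 and 12.5 CPM. Slc5a10 and Slc2a5 were also higher, at 0.99 ± 0.06 and 0.78 ± 0.07, Slc2a2 was lower as given above and Slc2a1 was not called. Of 18 organic ion and drug transporters, 7 were higher, 9 lower and 2 not called, with a median of -0.20. Slc22a2, an organic cation transporter, was higher at 0.85 ± 0.06. Slco1a1 and Slco1a6, transporters of organic anions, were lower at -2.73 ± 0.09 and -2.40 ± 0.09. In phosphate handling 4 genes were higher and 4 lower of 8, the lower ones being Slc34a1, Slc34a3, the FGF23 co-receptor Kl (-2.55 ± 0.07) and Slc20a1, which was not called without section 1 or section 2, and the scaffold Pdzk1 was higher by 0.29 ± 0.06.

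Of 13 genes of cholesterol synthesis and uptake 10 were higher, against 19.0% of all genes, and 2 lower, with a median of 0.66. Cyp51, the lanosterol demethylase, was at 376 and 331 CPM in the outer stripe and 59.5 and 49.5 CPM in the cortex, a log2 difference of 2.70 ± 0.06 (adjusted p = 2.20e-47, edgeR). Sqle and Idi1, further enzymes of the pathway, were higher at 1.96 ± 0.08 and 1.66 ± 0.08. Lss, the lanosterol synthase, was lower at -0.60 ± 0.22 (-0.37 and not called without section 2), and Fdps, the farnesyl diphosphate synthase, was not called.

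The 16 tested genes of glutathione and conjugation split into 7 higher and 9 lower, with a median of -0.34. All 3 genes of glutathione synthesis were higher. Gclc, the catalytic subunit of the first enzyme, was at 380.3 and 374 CPM in the outer stripe and 85.3 and 83.5 CPM in the cortex, Gclm, its regulatory subunit, was higher at 1.13 ± 0.06, and Gss, the second enzyme, at 1.11 ± 0.06. Glutathione peroxidases differed from one another: Gpx3, the secreted form, was at 4825 and 4205 CPM against 35122 and 25635 CPM (-2.74 ± 0.04), Gpx1 was lower at -1.59 ± 0.05 and Gpx4, which reduces lipid peroxides, higher at 0.78 ± 0.05. Of the transferases, Gstm1 was higher at 2.34 ± 0.06 and Gsta2 lower at -4.11 ± 0.08, and Ugt2b38, a glucuronosyltransferase, was lower at -5.22 ± 0.09.

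Genes of energy metabolism went in both directions. Of 7 genes of gluconeogenesis and fructose use, 6 were lower and 1, Khk (fructokinase), higher, at 0.23 ± 0.06, though not called without section 1 or section 2. G6pc, which releases glucose, was at 11.7 and 11.2 CPM in the outer stripe and 92.6 and 109.9 CPM in the cortex, whereas Pck1, the entry enzyme, differed by -0.57 ± 0.06. Of 14 genes of mitochondrial fatty acid oxidation 6 were higher, 4 lower and 4 not called, with a median of 0.17. Acadm, the medium-chain dehydrogenase, was at 1432 and 1439 CPM against 329 and 346 CPM, and Acaa2, the thiolase, was at 61.0 and 66.8 CPM against 232 and 202 CPM. Among 16 peroxisomal genes 7 were higher and 7 lower, with Acox2, the branched-chain oxidase, higher at 2.26 ± 0.06 and Ehhadh at 1.25 ± 0.06. Acsm3, a medium-chain acyl-CoA synthetase, was higher at 2.17 ± 0.06 and its relative Acsm2 lower at -1.01 ± 0.05. Glutamine and ammonia genes were 3 higher and 3 lower. Of 14 tested glycolysis genes 4 were higher, 5 lower and 5 not called, beside 19.0% higher and 19.9% lower over all genes. Pfkp, a phosphofructokinase, was at 1.48 ± 0.09.

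Of the 13 cytochrome P450 genes tested, 5 were higher, 7 lower and 1 not called, with a median of -0.61. Cyp2a4, a steroid hydroxylase, was at 752 and 675 CPM in the outer stripe and 131 and 104 CPM in the cortex, and Cyp4a10, a fatty acid hydroxylase, was higher at 2.11 ± 0.06. In the opposite direction Cyp2e1, which oxidises small solvents, was at 9.81 and 16.8 CPM against 470.2 and 462 CPM, and Cyp4b1 was lower at -3.51 ± 0.06. The 8 androgen-responsive genes held 3 higher and 5 lower. Kap, the kidney androgen-regulated protein, made up more of the counts than any other gene, at 199513 and 135976 CPM in the outer stripe and 98258 and 66308 CPM in the cortex (1.03 ± 0.03). Odc1, of polyamine synthesis, was lower at -2.18 ± 0.06.

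Of 14 tested transcription factors and nuclear receptors, 4 were higher, 6 lower and 4 not called, beside 19.0% higher and 19.9% lower over all genes. Maf was at 9.53 and 9.75 CPM in the outer stripe and 81.9 and 88.4 CPM in the cortex (-3.13 ± 0.10). Sim1 was higher at 1.45 ± 0.19. Hnf4a, a regulator of proximal tubule identity, was lower by a small amount, at -0.15 ± 0.06, and not called without section 1 or section 2. The nuclear receptors Nr1h4 and Esrra were lower at -0.81 ± 0.07 and -0.69 ± 0.07.

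**Figure D4:**
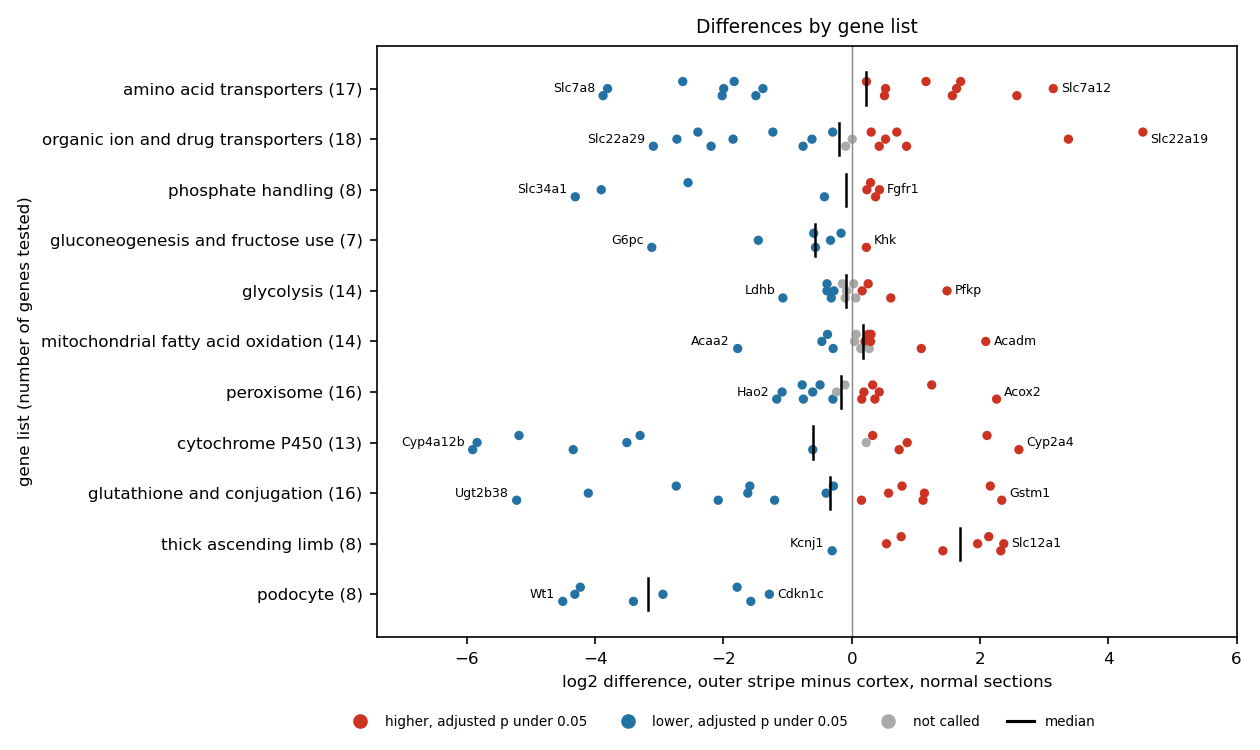
Log2 difference between outer stripe and cortex of each tested gene in 11 lists, with the median of each list as a black bar and the 2 outermost genes named. Thick ascending limb genes lie right of 0 except Kcnj1, podocyte genes lie left of 0, and transporters, cytochrome P450 and glutathione genes spread to both sides. Cyp4a12b had 1 UMI in the outer stripe of section 1 and 0 in section 2, and its position depends on the prior count of the fit.

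Other structures of the kidney moved with the zones, and their part in the differences above was not tested except where a value is given. Of 8 thick ascending limb genes, 7 were higher in the outer stripe, and their summed level was 6483 and 7022 CPM against 2214 and 2164 CPM in the cortex. The 4 genes Slc12a1, Umod, Cldn10 and Ptger3 made up a median 0.534% and 0.629% of the pooled counts of outer stripe spots and 0.155% and 0.166% of those of cortex spots. In all, 114 of 392 and 50 of 402 outer stripe spots were also among the 15% of spots richest in these genes. Without them, 630 outer stripe spots gave 2193 higher and 2271 lower genes, and the direction was the same for all 4316 genes called both ways. With only the 43 outer stripe spots below the section median of these genes, 379 were higher and 508 lower.

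All 8 podocyte genes were lower in the outer stripe, with a median of -3.17 and summed levels of 24.6 and 37.3 CPM against 121.8 and 173.4 CPM. The 4 genes of the distal convoluted tubule were lower with a median of -5.64, among them Slc12a3, the thiazide-sensitive cotransporter, at 6.83 and 12.0 CPM against 387 and 370.0 CPM. Of 6 intercalated cell genes 4 were lower, and of 6 renin and smooth muscle genes 5, with Ren1 at 12.8 and 13.1 CPM against 60.1 and 91.0 CPM. Principal cell genes were 3 higher, among them Aqp2 at 0.49 ± 0.07 (0.20 and not called without section 1, 0.77 without section 2), and 3 lower, among them the sodium channel subunit Scnn1g at -2.03 ± 0.18. Among 9 endothelial genes 2 were higher and 5 lower, beside 19.0% higher and 19.9% lower over all genes, with a median of -0.24.

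All 5 blood genes were lower in the outer stripe, with a median of -1.26, but they rested on section 2. Summed, they were at 2684 and 1499 CPM in the outer stripe and 3246 and 7664 CPM in the cortex. Without section 2 none of the 5 was called, and Hba-a1 went from -1.24 to -0.18 on the log2 scale. Of 6 macrophage genes 3 were higher. Csf1r, the receptor for colony-stimulating factor 1, was at 87.8 and 77.6 CPM against 16.1 and 17.0 CPM (2.33 ± 0.09), while Cd68, C1qa and Adgre1 were not called and C1qb and Lyz2 were higher at 0.45 ± 0.09 and 0.76 ± 0.12, but not called without section 1, at 0.26 and 0.15. The 6 T cell genes were at 11.2 and 10.2 CPM in sum in the outer stripe and 8.11 and 12.5 CPM in the cortex, so that the sums overlapped. Of these 4 were tested, with 1 higher, 1 lower and 2 not called. The calls of Trac and Cd8a were lost when either section was left out. Trac was at 0.28 without section 1 and 1.36 without section 2, and Cd8a at -2.01 and -0.68. The list of 11 genes that the study names for double-negative T cells summed to 85.2 and 95.8 CPM against 95.7 and 112 CPM. Of its 5 tested genes Fcer1g was higher and Dusp1 lower, and the other 6 were too low to test. Without section 1 neither Fcer1g, at 0.23, nor Dusp1, at -0.33, was called. Of 4 tested genes of tubular injury, Havcr1 (KIM-1) was at 2.13 and 3.94 CPM against 0.219 and 0.323 CPM (3.38 ± 0.54) and Lcn2 at 3.56 and 4.36 CPM against 0.731 and 1.29 CPM (2.00 ± 0.38). Clu and Spp1 were lower, at -3.36 ± 0.08 and -1.73 ± 0.07. Of 8 tested immediate early and heat shock genes 2 were higher and 3 lower, and of 5 fibroblast genes 1 was higher and 2 lower, beside 19.0% higher and 19.9% lower over all genes. The 13 mitochondrially encoded genes had a median of -0.17, with 7 lower and none higher, but this rested largely on section 2. Summed, they were at 53476 and 37661 CPM in the outer stripe and 56433 and 52435 CPM in the cortex. Without section 2, mt-Co2 was at 0.15, mt-Atp6 at 0.082 and mt-Cytb at 0.0019, and mt-Nd3 at -0.23 and mt-Nd5 at -0.11.

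The inner stripe, the 628 spots with the largest share of Slc12a1, Umod, Cldn10 and Ptger3 outside the other sets, served to ask which differences were also found against the neighbouring zone of the medulla. Of 12788 genes, 1323 (10.3%) were higher in the outer than the inner stripe and 1530 (12.0%) lower. Of 2377 genes higher than in the cortex and tested here, 781 were also higher than in the inner stripe and 246 were lower. All 15 leading outer stripe genes and all 8 straight segment genes, with Bcat1 in both groups, were among the genes higher than in the inner stripe. The 15 were chosen for large differences upward in the outer stripe, and the same outer stripe counts enter this comparison. Their result thus partly follows from that choice. Bcat1 was near the threshold, at an adjusted p of 0.049 (edgeR). The inner stripe of section 1 held more of the outer stripe's genes, with a median share of the 4 outer stripe genes of 0.213% per spot against 0.0430% in section 2. For Akr1c18 this gave 109 and 39.5 CPM in the inner stripe. The counts moved with several choices. Zones from each spot's own counts gave 2602 higher and 2541 lower genes, without section 1 there were 2831 higher genes, without section 2 there were 805 lower genes, and without the section block 262 were higher and 713 lower. Against the inner stripe, Csf1r differed by 0.63 ± 0.16 and was higher, whereas C1qb differed by -0.76 ± 0.14 and was lower.

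In the ischemic sections the same rule drew 360 and 391 outer stripe and 720 and 783 cortex spots, but the 4 outer stripe genes had median shares in outer stripe spots of 0.0372% and 0.0397%, against 0.294% and 0.287% in the normal ones. The 4 cortex genes had median shares in cortex spots of 0.0619% and 0.0588% against 0.107% and 0.110%, and among them Slc22a6 was at 460 and 468 CPM in the ischemic and 504 and 452 CPM in the normal cortex. Of the 1615 genes that differed by at least 2-fold in normal sections, 1264 had the same direction in ischemic sections, 933 were called in that direction and 159 in the other. Over all genes, 3441 of 13460 were higher (25.6%) and 3595 lower (26.7%) in the ischemic outer stripe. Genes 2-fold higher had a median of 1.60 in normal and 0.56 in ischemic sections, and genes 2-fold lower -1.70 and -1.22. The zone difference itself changed with ischemia for 4990 of 13460 genes (37.1%, edgeR interaction test). The interaction, ischemic minus normal log2 difference, was positive for 16.4% and negative for 20.7%. Its sign alone does not say whether the zones lay closer together or farther apart after ischemia.

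Of the straight segment genes, Bcat1 kept a large difference, 5.31 in normal and 4.94 in ischemic sections, as did Slc22a7, 3.38 and 2.89, and neither change was called. Atp11a went from 1.46 to -0.02, Slc5a8 from 1.49 to -0.97 and Acy3 from 0.57 to -1.34, each with an interaction past the threshold. Gstm1 went from 2.34 to -0.78. Among the 30 leading genes, the interactions that were farthest from 0 were those of Ces1e (3.51), Car3 (3.46), Nat8f2 (3.29), Acnat2 (3.19) and S100g (2.90), all lower in the outer stripe of both kinds of section and less so in ischemic ones. Cyp4a10 went from 2.11 to -2.46, an interaction of -4.59 ± 0.09.

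**Figure D5:**
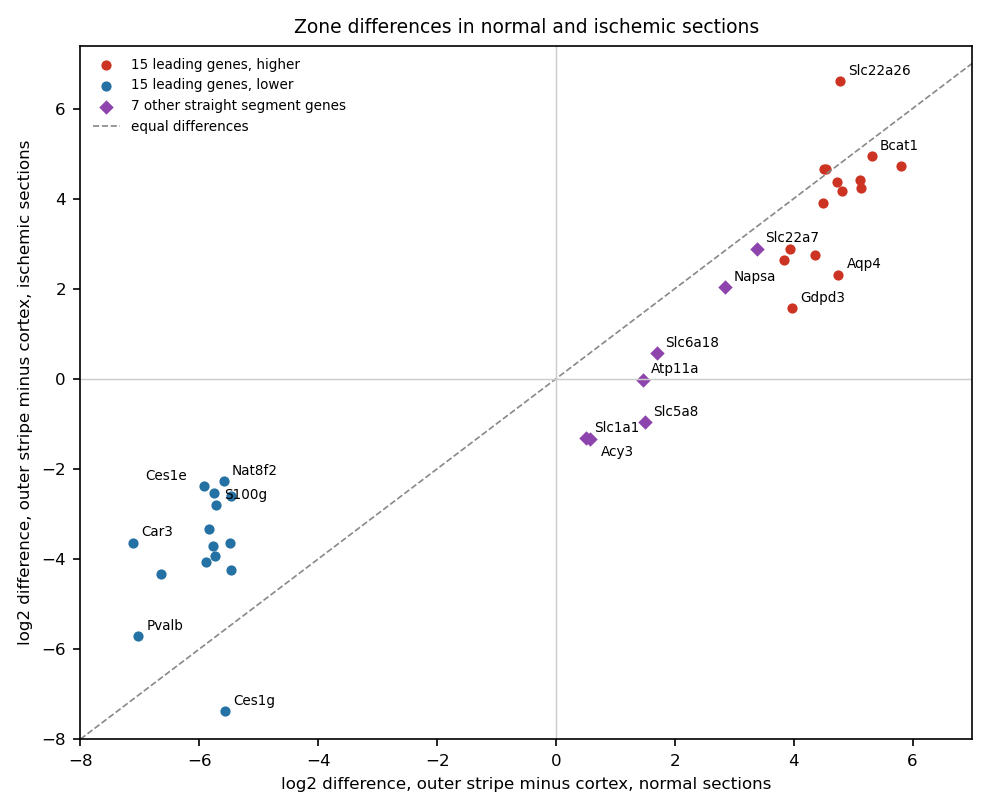
Log2 difference between outer stripe and cortex in normal (horizontal) and ischemic sections (vertical) for the 30 leading genes and 7 other genes of the straight segment, with the line of equal differences dashed. All 30 leading genes keep their direction, most at a smaller size, while Atp11a, Slc5a8, Acy3 and Slc1a1 lie at or below 0 on the vertical axis. In ischemic sections Pvalb and Ces1g were at 0 CPM in the outer stripe, and Slc22a26 and 4930434B07Rik at 0 CPM in the cortex. The vertical positions of these genes depend on the prior count of the fit. The 15 higher genes had lower outer stripe levels in ischemic sections, such as Akr1c18 at 6.51 and 5.83 CPM against 184 and 141 CPM.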

How the data were processed

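The authors sequenced Visium libraries and deposited counts of UMIs per gene and spot. The file headers name Space Ranger 1.3.0 and the submitters' processing notes the build mm10. Tissue spots of 4 sections were used, and other sections of the study were not analysed here. Counts were pooled over up to 6 neighbours to draw zones and the raw counts of each zone summed per section, leaving the 8 zone genes out. The sums were tested with edgeR 4.0.16 in R 4.3.3 (filterByExpr, TMM, quasi-likelihood test, section as a block), with Benjamini-Hochberg adjustment and a threshold of 0.05. The zones of 1 section come from the same tissue, which pairs them, and their deviations correlated at 0.255 over 12633 genes. The fit had 1 residual degree of freedom and 65.3 prior degrees of freedom. Leading genes were the 15 largest differences in each direction among called genes with the same sign in both sections and at least 20 CPM in both sections of the zone where they were higher. The other genes named are members of 32 lists, neighbours of leading genes, or families. Members, zones and lists were chosen with earlier results of these data known. Positions are from GENCODE vM21 (GRCm38), matched for 12631 of 12633 genes, and promoters from RefSeq (GRCm38.p6), held for 25 of 30 leading genes. Motifs were searched on both strands. Alternatives were DESeq2 1.42.0, other scalings, filters, zonings, no block and leaving out a section. On simulated counts of this comparison over 12355 genes, edgeR recovered 185 of 200 changed genes (86 of 100 changed 2-fold and 99 of 100 changed 4-fold) with 8 false calls. DESeq2 recovered 129 of the 200 (46 changed 2-fold and 83 changed 4-fold) with 0 false calls. A far smaller share of genes was changed there than the 38.8% called in the data, so the simulation does not show how either tool does at that share. Some members of the lists are counted but not reported here by name.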

Additional observations from a re-analysis of the deposited data

Results flagged for a closer look

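For 16 of the 30 leading genes, the difference between outer stripe and cortex was not the same in ischemic as in normal sections by the edgeR interaction test, beside 37.1% of all genes tested. The 30 were picked for their large differences in normal sections. The values are the ischemic minus the normal log2 difference. Among genes higher in the outer stripe, the interaction was -0.92 for Mettl7a2, -2.46 for Aqp4, -0.60 for Serpina1a, -2.43 for Gdpd3 and -1.23 for Slc39a8, so that each was higher by less after ischemia. Aqp4 thus differed by 4.75 in normal and 2.32 in ischemic sections, and Gdpd3 by 3.97 and 1.56.

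Among genes lower in the outer stripe, the interaction was 3.46 for Car3, 2.30 for Gm15883, 3.51 for Ces1e, 1.81 for Calb1, 2.49 for Cyp24a1 and 3.19 for Acnat2. It was 1.77 for Gldc, 2.90 for S100g, 3.29 for Nat8f2, 1.21 for Prodh2 and 2.84 for D630023F18Rik. Each was lower by less after ischemia, S100g at -5.73 in normal and -2.80 in ischemic sections. The levels behind this were unlike. Car3 was at 7.19 and 7.12 CPM in the ischemic cortex against 101 and 89.0 CPM in the normal one. Its outer stripe level was low in both, at 0.723 and 0.364 CPM against 0.569 and 0.830 CPM. Cyp24a1 rose in both zones, to 247 and 262 CPM in the ischemic cortex and 20.8 and 30.8 CPM in the ischemic outer stripe. The zones of ischemic sections were drawn with genes at lower levels there, and the part of this in the differences was not tested.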

How the results depend on the processing

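With DESeq2 in place of edgeR, 985 genes were higher and 898 lower in the outer stripe than in the cortex, and 2122 changed their zone difference with ischemia. Without the section block (pairing), 1525 and 1707 genes differed from the cortex, and 262 higher and 713 lower genes from the inner stripe. Leaving out 1 section gave 1404 to 1730 higher and 1455 to 1732 lower genes against the cortex, 1988 to 3739 genes changed with ischemia, and 1793 to 2831 higher and 805 to 1928 lower genes against the inner stripe; the section left in is then assumed to vary like the others. Zones from each spot's own counts gave 2602 higher and 2541 lower genes against the inner stripe. With the 43 outer stripe spots low in thick limb genes, 379 were higher and 508 lower, and 18 genes turned: Hk1 (-0.45), Pfkl (-0.095), Pex11a (-0.034), Acsm1 (0.11), mt-Co2 (0.092), Junb (-0.036), Cdkn1c (0.14), Plvap (-0.14), Cldn10 (-0.13), Aqp2 (-1.48), Fxyd4 (-0.38), Avpr2 (-0.78), Col1a1 (0.79), Hba-a1 (0.10), Hba-a2 (0.20), Hbb-bs (0.16), Hbb-bt (0.34) and Alas2 (0.19), of which Aqp2 passed the threshold in the new direction. Leaving out section 2 or 1 gave -0.68 to 0.10 for Gstp1, -0.45 to 1.09 for Dcn, -0.49 to 0.15 for mt-Co2, -0.40 to 0.082 for mt-Atp6, -0.25 to 0.0019 for mt-Cytb and -1.13 to 0.060 for Col3a1. With zones from 2 genes each, Dcn turned (-0.19). The causes were not tested. The zoning without the spots richest in thick limb genes was chosen after seeing the data and turned no listed gene, and neither did RLE scaling, scaling per spot, no filter, DESeq2, no block, stricter or wider zones, own counts, the ischemic sections in the fit or removing mitochondrial genes. Depth limits genes with few UMIs, such as Cyp4a12b.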

Other observations

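Gene families defined by symbol alone, chosen after seeing the data, were split in different ways between the zones. Over all tested genes 19.0% were higher and 19.9% lower. Of 88 tested genes with Rpl or Rps symbols, which include those of cytosolic ribosomal proteins, 31 were higher in the outer stripe. Of the others 2 were lower and 55 not called, and the median log2 difference was 0.10. Of 21 genes of the vacuolar proton pump (Atp6v), 14 were lower and 1 higher, with a median of -0.43. Of 6 intercalated cell genes 4 were also lower, but that list includes the pump genes Atp6v1g3 and Atp6v0d2. The part of intercalated cells in the pump result was not tested. Of 9 tested carboxylesterase genes 6 were lower and none higher. The 6 genes with Ugt symbols had a median of -4.36. Of these, the 4 Ugt2b genes were lower, and Ugt3a1 and Ugt3a2 were higher at 1.25 and 0.78. Ugt2b5 was at 0 CPM in the outer stripe of both sections.

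Among 46 genes with Nduf symbols, which include subunits of respiratory complex I, 10 were higher, 6 lower and 30 not called, with a median of 0.02. Claudins, the proteins of tight junctions, held 7 higher and 4 lower of 13, with a median of 0.40. All 258 tested genes with solute carrier (Slc) symbols together held 74 higher, 83 lower and 101 not called, with a median of -0.08, beside -0.02 over all genes.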
